A study of Mus musculus with 4 samples.

Results

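The left ventricles of STIM1-deficient (STIM1KO) and wild-type (WT) mice were compared after a sham operation, that is, without pressure overload. The comparison rested on the arrays titled STIM1KO sham and WT sham, which are 2 of the 4 arrays of the series. The other arrays, STIM1KO TAC and WT TAC, came from mice after transverse aortic constriction (TAC), in which a ligature narrows the aortic arch and loads the left ventricle with pressure. All mice were male C57BL/6, were operated on at 10 weeks of age and gave tissue 4 weeks later, at 14 weeks. The TAC ligature was tied over a wire of 0.3 mm, and the sham operation left the ligature out. The labels give the allele only as KO or WT. They name no zygosity, no tissue in which STIM1 was lost and no littermates. The average ratio of heart weight to body weight, for which no unit was given, was 4.5 in STIM1KO sham, 4.1 in WT sham, 4.9 in STIM1KO TAC and 6.7 in WT TAC.

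Each group was measured on 1 single-channel Cy5 array. An average ratio per group implies several mice, but whether 1 mouse or a pool gave the RNA on an array is not stated in the labels. A difference below therefore compares a pair of arrays, with no replicate check and no p-value. Values are quantile-normalized intensities, a relative brightness without a unit, and differences are on the log2 scale, STIM1KO sham minus WT sham. Of 14039 genes measured on all 4 arrays, the 7020 whose mean log2 intensity was at or above the median of 4.87 were kept. In tissue such as this, fewer cells of a type and less RNA per cell cannot be told apart. The heart muscle genes Myh6 and Tnni3 had intensities of 16894 and 32397 on STIM1KO sham and 15832 and 25893 on WT sham. The difference of Myl2 was 0.00, and 4 atrial and conduction markers passing the filter had a median of 0.11. The Ryr2 probe was dim on every array and the array had no named Actc1 probe.

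STIM1 is a membrane protein of the endoplasmic reticulum that senses the calcium stored there. When the store empties, STIM1 clusters and opens Orai channels in the plasma membrane, and calcium flows in. This store-operated calcium entry is prominent in immune cells, platelets, skeletal muscle and endothelium, and in adult heart muscle it is small beside the calcium released at every beat from the sarcoplasmic reticulum. The calcium that enters can activate the phosphatase calcineurin and its NFAT transcription factors, a pathway known for driving growth of the heart. Mice that lack STIM1 in all tissues mostly die around birth.

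Stim1 was dimmer in STIM1KO, with an intensity of 20.7 on STIM1KO sham and 41.6 on WT sham, 2.01-fold lower. After TAC it was 13.8 in STIM1KO and 33.9 in WT. Both STIM1KO arrays thus lay below both WT arrays, although the probe kept a signal and lay under the filter level on average. The place of the probe relative to the altered stretch is unknown here, which makes it a partial check of the labels.

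The partners of STIM1 differed little between the sham arrays. Stim2, the second sensor, was at 25.34 on STIM1KO sham and 28.01 on WT sham, under the filter level on average. Orai1, the channel pore, was at 83.5 on STIM1KO sham and 72.8 on WT sham, and Orai3 was at 70.3 and 64.1 on the same arrays. None of these reached 1.5-fold. Of 23 genes listed for store-operated calcium entry, 18 were measured on all arrays and 10 passed the filter, with 6 above 0, 4 below 0 and a median of 0.06. Cracr2a, a cytosolic calcium-binding regulator of Orai channels, was at 44.7 on STIM1KO sham and 27.6 on WT sham, a difference of 0.70. Itpr3, an inositol trisphosphate receptor that releases stored calcium, was at 25.7 on STIM1KO sham and 40.2 on WT sham, a difference of -0.65. These were the only members passing the filter that lay beyond 1.5-fold, 1 each way, and under the filter Stim1 itself and the channel gene Trpc4 (-0.79) did too. The difference was 0.43 for Homer1, a scaffold of calcium channels, and -0.38 for Cracr2b, the relative of Cracr2a.

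Genes beside Stim1 on chromosome 7 were looked up by their order in the RefSeq annotation and were named for that place, not for their values. The nearest neighbours on either side, Pgap2 and Rrm1, differed by -0.24 and -0.28. After TAC they differed by -0.40 and -0.73. Of the 10 nearest measured genes on each side, those passing the filter ranged between -0.40 for Trim21 and 0.74 for Clpb. None of the 565 filtered genes of chromosome 7 was 2-fold lower on STIM1KO sham, beside 0.527% of all filtered genes. Cpxm2, also on chromosome 7, was 2-fold higher, with a difference of 1.28.

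Across the 7020 genes the Pearson correlation between the sham arrays was 0.987, and the differences had a median of 0.00 and an SD of 0.29. Genes are not independent replicates. At 2-fold, 37 genes were lower on STIM1KO sham (0.527% of those kept) and 2 were higher (0.0285%). At 1.5-fold, 192 were lower (2.74%) and 86 higher (1.23%), and at 3-fold 12 were lower (0.171%) and 0 higher. The bulk of genes was split evenly, with 50.1% above 0 and 49.8% below. Among these genes, which all have a symbol, the large differences thus lay on the lower side. The 2117 probes without a symbol at or above the filter level showed no such lean, with 5 higher and 5 lower at 2-fold. Quantile normalization sets the arrays to a common distribution, so the even split cannot show whether the whole distribution shifted. With values as deposited the median over 7020 genes was -0.04, and with each array centred on its median it was 0.03. Spread depended on brightness: with all 14039 genes divided by level into 4 bins of about equal size, from dim to bright, the SD of the differences was 0.57, 0.37, 0.30 and 0.28. In the brightest bin 20 genes were 2-fold lower on STIM1KO sham and 0 were higher, whereas the dimmest bin, which the filter removed, had 161 lower and 126 higher.

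**Figure D1:**
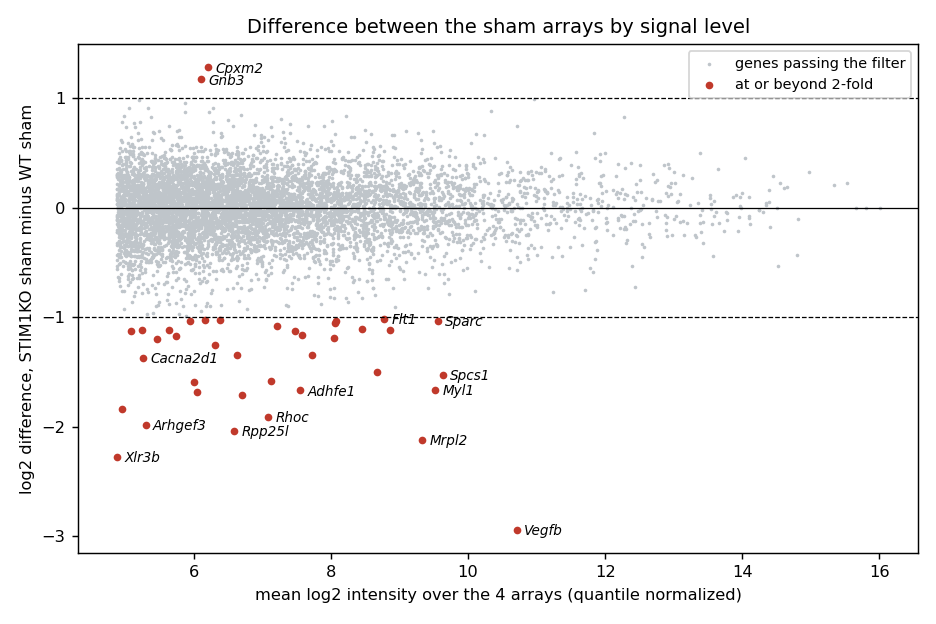
The log2 difference, STIM1KO sham minus WT sham (vertical axis), is plotted against the mean log2 intensity over the 4 arrays (horizontal axis) for each of the 7020 genes. Grey points are genes within 2-fold, red points are the 37 lower and 2 higher genes, and dashed lines mark 2-fold; Vegfb, at -2.94, stands lowest.

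The largest difference was that of Vegfb. It encodes vascular endothelial growth factor B, a ligand of the receptor FLT1 (VEGFR1) that heart muscle makes in quantity and that is tied to coronary vessel growth and to fatty acid handling. Vegfb was at 423 on STIM1KO sham and 3247 on WT sham, 7.67-fold lower with a log2 difference of -2.94. After TAC it was at 2172 in STIM1KO and 2676 in WT, a difference of -0.30. The STIM1KO sham array was alone in being low, and the other 3 arrays were within 1.5-fold of each other.

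A pair of other members of the same ligand and receptor family stood near the 2-fold mark. Flt1, the receptor that binds VEGF-B and placental growth factor, was at 309 on STIM1KO sham and 625 on WT sham, a difference of -1.01. On the TAC arrays it was at 429 in STIM1KO and 445 in WT. Pgf, which encodes placental growth factor, was at 30.9 on STIM1KO sham and 60.7 on WT sham, a difference of -0.98, and at 66.1 on STIM1KO TAC and 74.1 on WT TAC. Both genes were lowest on STIM1KO sham, and for both the TAC arrays were close together.

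Other members were closer to 0. Kdr, the VEGFR2 receptor that carries most VEGF-A signalling, was at 246 on STIM1KO sham and 282 on WT sham, a difference of -0.19. Vegfa, a ligand of both VEGFR1 and VEGFR2, was at 66.4 on STIM1KO sham and 64.8 on WT sham. The coreceptor Nrp1 differed by 0.01, and Vegfc, a ligand of lymphatic vessels, by -0.25. Of 10 listed genes of the family 9 were measured on all arrays and 7 passed the filter, with 5 below 0, 3 at least 1.5-fold lower and a median of -0.25. Between the sham arrays 49.8% of all filtered genes were below 0 and 2.74% at least 1.5-fold lower. After TAC all 7 family members were below 0, beside 48.8% of all filtered genes. Their TAC median was -0.21, and Kdr had the largest TAC difference, -0.57.

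**Figure D2:**
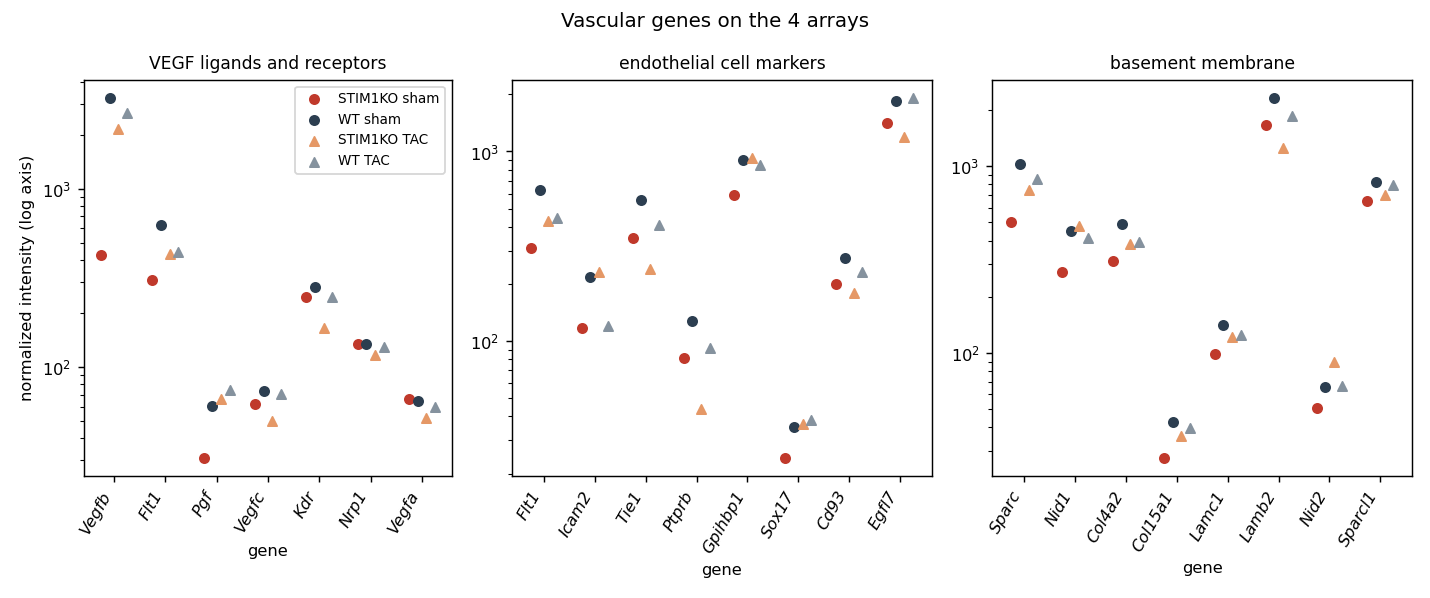
Normalized intensity (vertical log axis) of VEGF family genes, endothelial markers and basement membrane genes on each of the 4 arrays; circles are sham, triangles are TAC, red and orange are STIM1KO and dark and light grey are WT. In the left panel the STIM1KO sham point lies lowest of 4 for Vegfb, Flt1 and Pgf. The middle and right panels show only the 8 lowest sham differences among the 20 and 11 members passing the filter. STIM1KO sham therefore lies below WT sham in these panels by choice.

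RefSeq promoters (build GRCm38.p6) are printed for the targeted gene, for the gene with the largest difference and for its receptor, so that the letters upstream of this ligand and receptor pair can be read side by side. Each is the 250 bases before the annotated start, on the gene's strand. Stim1 is chr7:102267569-102267818 on the plus strand, Vegfb is chr19:6987652-6987901 on the minus strand and Flt1 is chr5:147726012-147726261 on the minus strand. Capitals mark GC boxes (GGGCGG or its complement CCGCCC), the letters to which SP family factors bind, and in Flt1 also a cAMP response element (TGACGTCA).
Stim1: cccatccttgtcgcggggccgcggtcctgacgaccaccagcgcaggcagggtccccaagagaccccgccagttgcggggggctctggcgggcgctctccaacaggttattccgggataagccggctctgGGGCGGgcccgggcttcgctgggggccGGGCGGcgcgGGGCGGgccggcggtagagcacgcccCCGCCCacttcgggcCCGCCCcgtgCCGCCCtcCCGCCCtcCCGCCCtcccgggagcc
Vegfb: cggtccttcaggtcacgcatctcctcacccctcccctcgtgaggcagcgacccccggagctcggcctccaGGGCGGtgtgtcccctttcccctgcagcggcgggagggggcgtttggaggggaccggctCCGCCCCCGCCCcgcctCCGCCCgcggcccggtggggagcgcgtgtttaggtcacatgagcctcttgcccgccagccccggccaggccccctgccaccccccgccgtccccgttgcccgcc
Flt1: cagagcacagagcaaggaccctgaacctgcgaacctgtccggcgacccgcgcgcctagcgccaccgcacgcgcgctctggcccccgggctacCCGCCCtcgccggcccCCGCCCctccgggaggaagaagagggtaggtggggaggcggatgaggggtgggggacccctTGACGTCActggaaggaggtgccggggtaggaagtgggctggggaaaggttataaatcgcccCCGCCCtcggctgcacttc
The windows held 8 GC boxes in Stim1, 4 in Vegfb and 3 in Flt1, and their GC content was 78.4%, 76.4% and 70.4%. The NFAT core TGGAAA was absent from all 3, and so was the ETS core CCGGAAG.

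All 4 motifs were counted on both strands, and the NFAT and ETS letters share a GGAA core. Of the 37 lower genes, 29 had a promoter in the RefSeq table, 39 promoters in all. A GC box lay in 27 of these (69.2%), beside 56.2% of the 7299 promoters of filtered genes and 32.7% of all 32851 promoters of the table. The NFAT core lay in 5 (12.8%, beside 14.8% of filtered promoters), the ETS core in 2 (5.13%, beside 13.8%) and the cAMP response element in 2 (5.13%, beside 2.79%). These counts describe letters in a window and are no evidence of binding.

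Endothelial markers were lower on STIM1KO sham. Flt1 and Kdr were on this list and on that of the VEGF family. Of 28 listed genes 26 were measured on all arrays and 20 passed the filter, with 18 below 0, 2 above 0, 5 at least 1.5-fold lower and 0 at least 1.5-fold higher. Of all filtered genes, 49.8% were below 0, 2.74% at least 1.5-fold lower and 1.23% at least 1.5-fold higher. Their median was -0.34, and the summed intensity of the 20 was 19833 on STIM1KO sham, 23288 on WT sham, 19563 on STIM1KO TAC and 21090 on WT TAC. After Flt1, Icam2, an adhesion molecule of the endothelial surface, was lowest, at 118 on STIM1KO sham and 218 on WT sham, a difference of -0.89. On the TAC arrays Icam2 ran the other way, at 232 in STIM1KO and 119.6 in WT. Tie1, an orphan receptor kinase of endothelium, was at 349 on STIM1KO sham and 554 on WT sham, and at 239 on STIM1KO TAC and 408 on WT TAC. Ptprb, the endothelial phosphatase that restrains the angiopoietin receptor, was at 81.1 on STIM1KO sham and 128 on WT sham, and at 43.7 on STIM1KO TAC and 91.8 on WT TAC. Tie1 and Ptprb were low on both STIM1KO arrays. Gpihbp1, which carries lipoprotein lipase across capillary endothelium, differed by -0.61, and Sox17, an arterial transcription factor, by -0.55, and both were lowest on STIM1KO sham alone. Cd93 (-0.45), Egfl7 (-0.39) and Pecam1 (-0.37) were among the smaller differences. Both STIM1KO arrays lay below both WT arrays for 11 of the 20, beside 19.1% of all filtered genes, and the median after TAC was -0.24.

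Signalling genes of endothelium gave a smaller shift. Of 11 genes for angiopoietins, Notch and other endothelial signals that passed, 7 were below 0 and the median was -0.14. Tie1, Tek and Aplnr were listed both here and among the endothelial markers. Notch1, a receptor that directs arterial fate and sprouting, was at 30.2 on STIM1KO sham and 49.4 on WT sham, and at 18.4 on STIM1KO TAC and 43.3 on WT TAC. It was low on both STIM1KO arrays. Among 14 genes of TGF-beta and BMP signalling 9 were below 0, with a median of -0.01 whose sign turned with the scaling of the arrays. Id1 and Id3, which are BMP targets that block basic helix-loop-helix factors, differed by -0.67 and -0.57.

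Basement membrane genes, which encode the sheet of laminin, collagen IV and nidogen around vessels and muscle cells, had the lowest median of all lists with 5 or more members. Of 16 listed genes 14 were measured on all arrays and 11 passed the filter. All 11 were below 0, 4 of them at least 1.5-fold, with a median of -0.49. Of all filtered genes, 49.8% were below 0 and 2.74% at least 1.5-fold lower. The summed intensity of the 11 was 3718 on STIM1KO sham, 5519 on WT sham, 3964 on STIM1KO TAC and 4702 on WT TAC. Sparc, a collagen-binding glycoprotein, was at 499.9 on STIM1KO sham and 1023 on WT sham, a difference of -1.03. Nid1, which links laminin to collagen IV, was at 271 on STIM1KO sham and 449 on WT sham, and at 476 on STIM1KO TAC and 412 on WT TAC. Col4a2, a collagen IV chain, was at 310.3 on STIM1KO sham and 492 on WT sham, and at 384 on STIM1KO TAC and 394 on WT TAC. All 3 were lowest on STIM1KO sham. The laminin chains Lamc1 and Lamb2 differed by -0.51 and -0.49, and Nid2 by -0.37. Lamb2 was also low on STIM1KO TAC, at 1246 beside 1868 on WT TAC. After TAC the median of the list was -0.04, with 7 below 0. Under the filter, Col4a1, the partner chain of Col4a2, differed by 0.46, and for Col15a1 the bright probe differed by -0.65 and a dimmer one by -0.01.

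The wider matrix lists were shifted less. Of 15 collagen chains passing the filter 9 were below 0, with a median of -0.29 and 3 at least 1.5-fold lower. Of all filtered genes, 49.8% were below 0 and 2.74% at least 1.5-fold lower. Of these 3 chains, Col4a2 and Col15a1 were also on the basement membrane list. Of 27 matrix genes that are not collagens 17 were below 0, with a median of -0.13, and Sparc was on this list as well. Timp4, a metalloproteinase inhibitor abundant in heart, was at 136 on STIM1KO sham and 237 on WT sham, and at 322 on STIM1KO TAC and 213 on WT TAC. It thus differed in opposite directions in the sham and TAC pairs, by -0.80 and 0.60. Timp3, a matrix-bound inhibitor, was low on both STIM1KO arrays, with differences of -0.50 and -0.97. Dcn, the small proteoglycan decorin, differed by -0.45, and Mgp, which prevents calcification, by 0.37. The collagen, matrix and fibroblast lists shared members too, Col1a2 and Dcn among them.

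Markers of other cells of the heart gave values to set beside these lists, and the part that a different share of cell types played in any result was not tested. Of 17 macrophage and monocyte markers 16 were below 0, beside 49.8% of all filtered genes, and Mrc1 alone was above. The median was -0.21 and none was beyond 1.5-fold. After TAC 7 of these markers were below 0 and 10 above, beside 48.8% and 51.1% of all filtered genes, with a median of 0.06. Their summed intensity was 3220.0 on STIM1KO sham, 3748 on WT sham, 3874 on STIM1KO TAC and 3761 on WT TAC. Of 17 fibroblast markers 12 were below 0 with a median of -0.24, led by S100a4 (-0.76), Col1a2 (-0.63) and Cygb (-0.53), and the summed intensity was 12849 on STIM1KO sham, 16266 on WT sham, 9812 on STIM1KO TAC and 13900.2 on WT TAC. The bright probe of Gsn, the actin-severing protein gelsolin, carried much of this sum, at 6332 on STIM1KO sham and 8111 on WT sham, and at 4373 on STIM1KO TAC and 5949 on WT TAC. Of 11 pericyte and smooth muscle markers 6 were above 0 and 5 below, beside 50.1% and 49.8% of all filtered genes, with a median of 0.13 between the sham arrays and -0.19 after TAC. Tagln, an actin-binding protein of smooth muscle, was at 196 on STIM1KO sham and 121 on WT sham, while Rgs5, a marker of pericytes, differed by -0.40. No marker of T, B, NK or mast cells passed the filter out of 16 measured, nor did more than 1 of 9 neutrophil and 2 of 4 erythroid markers. Adipocyte, Schwann cell and skeletal muscle markers had medians between 0.06 and 0.07 over 5 or 6 genes each.

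The remaining 2-fold lower genes belonged to many functions. Mrpl2 and Mrpl55, subunits of the mitochondrial ribosome, were at 315 and 215 on STIM1KO sham and at 1369 and 465 on WT sham. On the TAC arrays both ran the other way, at 758 and 463 in STIM1KO and 525 and 331 in WT. The family did not share the shift, since 71 mitochondrial ribosomal protein genes passed the filter with 40 below 0 and a median of -0.03, and the only other subunit beyond 1.5-fold was Mrpl44 (-0.79). Among 29 ribosome biogenesis genes 5 were at least 1.5-fold lower and none higher, beside 2.74% and 1.23% of all filtered genes, with a median of -0.03. Rpp25l, related to a subunit of the RNA-processing enzymes RNase P and MRP, was at 32.6 on STIM1KO sham and 134 on WT sham, and at 129 and 152 on the STIM1KO TAC and WT TAC arrays. Riok3, an atypical kinase of small ribosomal subunit maturation, was at 55.6 on STIM1KO sham and 182 on WT sham, and at 81.0 on STIM1KO TAC and 145 on WT TAC. Rpp25l was low on STIM1KO sham alone and Riok3 on both STIM1KO arrays. The medians of both lists turned sign with the scaling of the arrays.

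Arhgef3 and Rhoc stood among the lowest genes as well. Arhgef3 was at 14.7 on STIM1KO sham and 58.0 on WT sham, and at 51.8 on STIM1KO TAC and 54.4 on WT TAC. Rhoc was at 49.7 on STIM1KO sham and 187 on WT sham, and at 169.6 on STIM1KO TAC and 218 on WT TAC. Both were low on STIM1KO sham alone.

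Genes of muscle and calcium channels were also among the 37. Cacna2d1, an auxiliary subunit that raises the surface level of voltage-gated calcium channels, was at 36.1 on STIM1KO sham and 93.2 on WT sham, and at 16.8 on STIM1KO TAC and 38.4 on WT TAC. It differed by -1.37 and -1.19 in the sham and TAC pairs. Myl1, an alkali myosin light chain of fast skeletal muscle, was at 451 on STIM1KO sham and 1427 on WT sham, and at 539 on STIM1KO TAC and 841 on WT TAC. For both genes WT sham was more than 1.5-fold above every other array. Klf6, a zinc finger factor induced by injury, had the same form, at 69.6 on STIM1KO sham, 177 on WT sham, 68.7 on STIM1KO TAC and 114 on WT TAC.

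Enzymes of metabolism and stress made up another group. Adhfe1, a mitochondrial enzyme that oxidises hydroxybutyrate, was at 97.7 on STIM1KO sham and 309.9 on WT sham, and at 137 on STIM1KO TAC and 299 on WT TAC. It was low on both STIM1KO arrays. Me1, the cytosolic malic enzyme that makes NADPH, was at 275 on STIM1KO sham and 594 on WT sham, and at 618 on STIM1KO TAC and 468 on WT TAC. Chac1, a glutathione-degrading target of the integrated stress response, was at 17.8 on STIM1KO sham and 38.7 on WT sham, and at 86.5 on STIM1KO TAC and 34.8 on WT TAC. Me1 and Chac1 were lowest on STIM1KO sham and highest on STIM1KO TAC. Nudt1, which removes oxidised nucleotides, differed by -1.20 and the peptidase Dpp3 by -1.25.

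Protein processing and traffic were represented by Spcs1 (signal peptidase), Rab12 (an endosomal GTPase), Tmem115 and Tm9sf3 (Golgi membrane proteins), Necap2 (a clathrin adaptor partner), Trappc9 (vesicle tethering), Ppic (a secretory pathway cyclophilin), Fbxo3 (a ubiquitin ligase subunit), Usp25 (a deubiquitinase) and Ufsp1 (a UFM1 protease). Spcs1 was at 429 on STIM1KO sham and 1236 on WT sham, and at 693 on STIM1KO TAC and 1071 on WT TAC. Fbxo3 was at 96.0 on STIM1KO sham and 244 on WT sham, and at 344 on STIM1KO TAC and 247 on WT TAC. Necap2 was at 18.4 on STIM1KO sham and 65.5 on WT sham, and at 17.002 on STIM1KO TAC and 44.2 on WT TAC. These 3 genes show the forms that occurred: low on STIM1KO sham with an intermediate TAC value, low on STIM1KO sham alone, and low on both STIM1KO arrays. The differences of the 10 genes ran between -1.83 for Necap2 and -1.08 for Trappc9. The others of the 37 were Xlr3b, Ewsr1 (an RNA-binding protein), Pard6a (cell polarity), Ankrd40, C1qtnf12 (a secreted relative of adiponectin), Tmem242, Arrdc2 (an alpha-arrestin), Siva1 (cell death), Dipk1b and Phf10 (a chromatin remodeling subunit), with differences between -2.27 for Xlr3b and -1.02 for Phf10. Xlr3b belongs to a family of near-identical X-linked copies that 1 probe may not tell apart, so its value is uncertain.

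**Figure D3:**
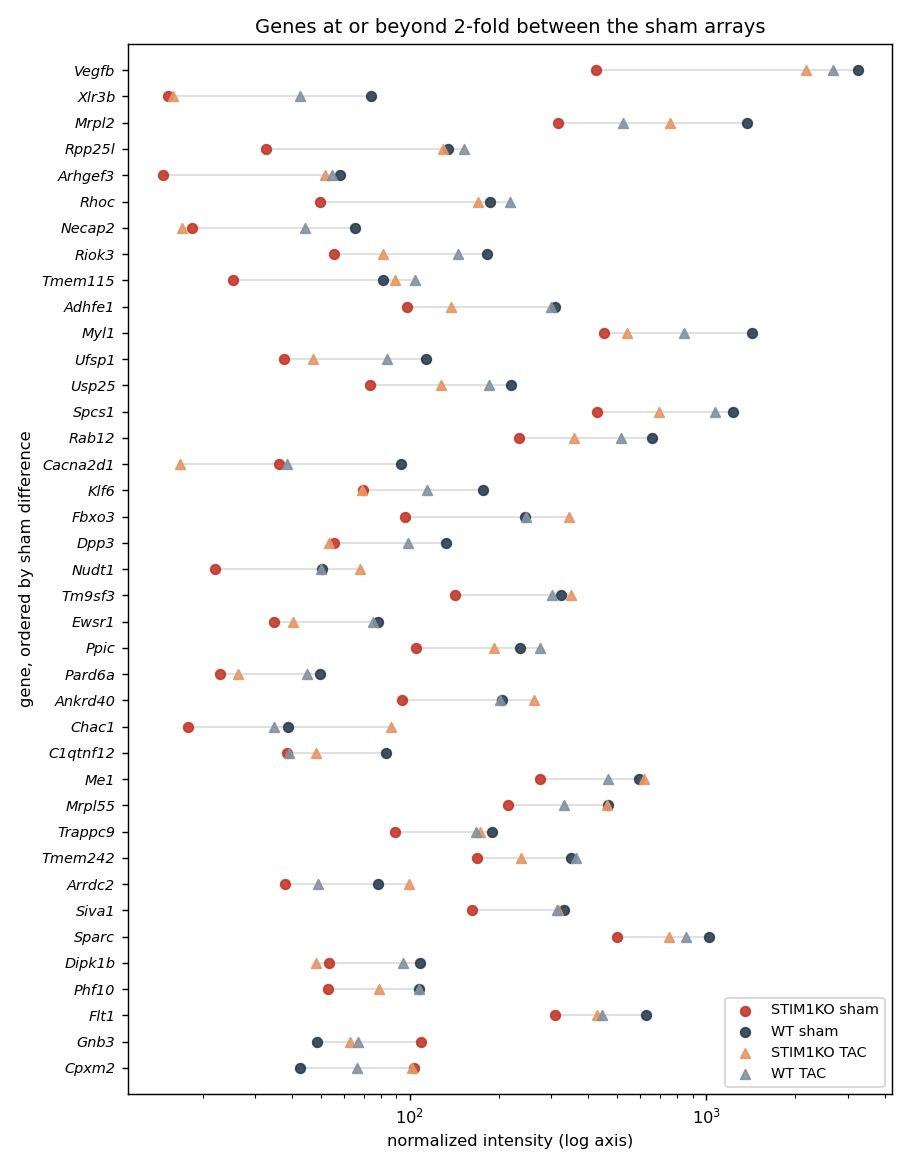
Normalized intensity (horizontal log axis) on the 4 arrays for each of the 39 genes at or beyond 2-fold between the sham arrays, ordered by that difference, lowest at the top; circles are sham and triangles TAC, red and orange are STIM1KO, dark and light grey are WT, and a thin line joins the lowest and highest array. For 32 of the 37 lower genes the red STIM1KO sham point is the leftmost.

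The TAC arrays share no array with the sham pair and show which of the differences recurred with genotype. Of the 37 genes, 25 were below 0 between STIM1KO TAC and WT TAC and 12 above, beside 48.8% and 51.1% of all filtered genes, and their median was -0.36. At least 1.5-fold lower in STIM1KO TAC were 14 of them (37.8%), beside 8.22% of all filtered genes. The 14 were Xlr3b, Necap2, Riok3, Adhfe1, Myl1, Ufsp1, Spcs1, Cacna2d1, Klf6, Dpp3, Ewsr1, Pard6a, Tmem242 and Dipk1b. Of these, Xlr3b, Necap2, Adhfe1 and Cacna2d1 were 2-fold lower in both pairs, and 1.08% of all filtered genes were that much lower after TAC. For Xlr3b and Necap2 both STIM1KO arrays lay under the filter level, an intensity of 29.3, and for Cacna2d1 STIM1KO TAC did. Pard6a, also among the 14, had both STIM1KO arrays under it as well. These genes passed the filter through their brighter arrays, which limits what their recurrence, and the share of 37.8% that counts them, can show. Another 21 genes were within 1.5-fold between the TAC arrays, Vegfb, Flt1 and Sparc among them, and Chac1 and Arrdc2 were 2-fold higher on STIM1KO TAC (0.883% of all filtered genes). For Arhgef3, Tmem115, Nudt1 and Chac1 STIM1KO sham alone lay under the filter level, so their sham differences rest on a dim value. The 37 were chosen on the sham arrays, while the normalization and the filter used all 4, and whether their share differs from the background was not tested.

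Sorting the 37 by which array stood out gave 3 kinds. In 20 genes STIM1KO sham lay at least 1.5-fold below each of the other arrays, a form found in 0.769% of all filtered genes. Vegfb, Mrpl2, Rpp25l, Arhgef3, Rhoc, Tmem115, Chac1, Me1 and Sparc were of this kind. In 6 genes, Xlr3b, Mrpl2, Myl1, Cacna2d1, Klf6 and C1qtnf12, WT sham lay at least 1.5-fold above each other array, and Mrpl2 met both rules. The share of all filtered genes that met this WT sham rule was not counted. The remaining 12 met neither and included Adhfe1, Necap2, Riok3 and Flt1. STIM1KO sham was the lowest of the 4 arrays in 32 of the 37, beside 18.6% of all filtered genes. Both STIM1KO arrays lay below both WT arrays in 24, beside 19.1% of all filtered genes. Since the 37 were chosen for a low STIM1KO sham value, these counts describe them and are no test. None of the 39 genes at 2-fold had a second probe measured on all arrays, so each rests on 1 probe.

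At the lower bar of 1.5-fold the same comparison covered more genes. Of the 192 lower genes 60 (31.2%, beside 8.22% of all filtered genes) were also at least 1.5-fold lower between the TAC arrays. Another 14 were at least 1.5-fold higher, beside 6.31% of all filtered genes, and the median of the 192 was -0.31. Of the 86 higher genes 13 (15.1%, beside 6.31% of all filtered genes) were at least 1.5-fold higher after TAC. Another 2 were at least 1.5-fold lower, beside 8.22% of all filtered genes, and the median of the 86 was 0.23. Just inside the 2-fold mark lay Dipk1b (-1.02), Phf10 (-1.02) and Flt1 (-1.01), and just outside it lay Ccar1 (-0.99), Pgf (-0.98) and Utp4 (-0.97).

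**Figure D4:**
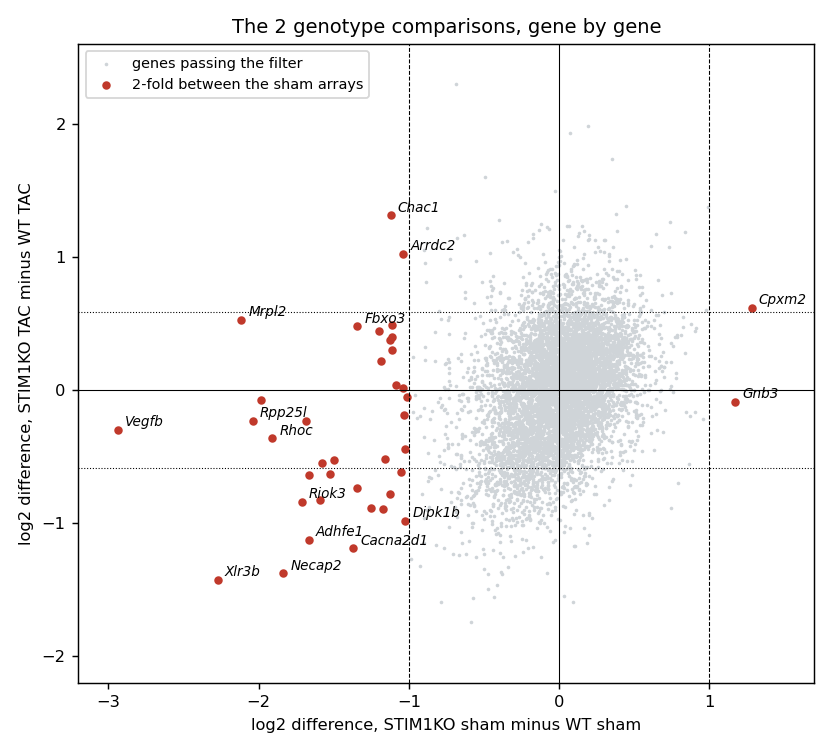
Each point is 1 of the 7020 genes, with the log2 difference STIM1KO sham minus WT sham on the horizontal axis and STIM1KO TAC minus WT TAC on the vertical axis; 1 gene lies outside the plotted range. Red points are the 39 genes at 2-fold between the sham arrays, dashed lines mark 2-fold and dotted lines 1.5-fold; Xlr3b, Necap2, Adhfe1 and Cacna2d1 are low on both axes, while Vegfb is low on the horizontal axis alone.

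Higher on STIM1KO sham at 2-fold were Cpxm2 and Gnb3. Cpxm2, a secreted protein of the carboxypeptidase family, was at 104 on STIM1KO sham and 42.6 on WT sham, and at 102 on STIM1KO TAC and 66.5 on WT TAC. It was high on both STIM1KO arrays. Gnb3, a beta subunit of heterotrimeric G proteins, was at 109 on STIM1KO sham and 48.6 on WT sham, and at 62.8 on STIM1KO TAC and 66.8 on WT TAC, so it was high on STIM1KO sham alone. Under the mark, the bright probe of Ttn, the giant spring protein titin, was at 2510.2 on STIM1KO sham and 1264 on WT sham, and at 3599 on STIM1KO TAC and 1389 on WT TAC. A second Ttn probe was at 79.0 on STIM1KO sham and 77.1 on WT sham, and the third, a dim probe was at 5.19 and 3.29 on the same arrays, so the 3 probes of this gene differed by 0.99, 0.03 and 0.66. Clu, the extracellular chaperone clusterin, was at 6628 on STIM1KO sham and 3747 on WT sham, and at 5913 on STIM1KO TAC and 4047 on WT TAC. Mdk, the growth factor midkine, was at 99.1 on STIM1KO sham and 52.9 on WT sham, and at 97.2 on STIM1KO TAC and 71.4 on WT TAC. Clu and Mdk were high on both STIM1KO arrays. Opa1, which fuses the inner mitochondrial membrane, differed by 0.91, Pth1r, the parathyroid hormone receptor, by 0.91, and Hspa1l, a heat shock protein of the HSP70 family, by 0.96.

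Lists of the contractile and calcium machinery of heart muscle had medians slightly above 0. Of 15 genes of sarcoplasmic reticulum calcium cycling 12 were above 0, with a median of 0.16 and none beyond 1.5-fold. The calcium-binding protein S100a1 was at 6186 on STIM1KO sham and 4716 on WT sham. The storage protein Casq2 was at 1309 on STIM1KO sham and 1003 on WT sham, and Pln, which inhibits the calcium pump, was at 10016 and 8321 on the same arrays. Trdn, which anchors the release channel, ran the other way, at 1208 on STIM1KO sham and 1562 on WT sham. After TAC the median of this list was -0.14. Z-disc, M-band and titin genes had 14 of 21 above 0 and a median of 0.16, and myosin, actin, troponin and tropomyosin genes had 11 of 17 above 0 and a median of 0.09. Intercalated disc genes had 10 of 16 above 0 and a median of 0.08, with Xirp2, an actin-binding repeat protein, at 0.68 and the desmosomal cadherins Dsg2 and Dsc2 at 0.55 and -0.58. Fetal and hypertrophy markers had 8 above 0 and 10 below, with a median of -0.01, and calcineurin and NFAT genes had 5 each way and a median of -0.02. The sign of the last 2 medians turned with the scaling. Rcan1, a calcineurin target and inhibitor, was at 372 on STIM1KO sham and 277 on WT sham, and at 283 on STIM1KO TAC and 292 on WT TAC.

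Metabolic lists differed by small amounts with single genes standing out. Glycolysis genes had 18 of 26 above 0 and a median of 0.11, with the aldolase Aldoa at 0.46 and the hexokinase Hk2 at -0.46. Fatty acid genes had 17 of 29 above 0 and a median of 0.09, with the oxidation enzyme Hadh at 0.50, the carnitine transferase Cpt1b at 0.46 and the mitochondrial carrier Ucp3 at -0.74. Complex I genes had 21 of 33 below 0 and a median of -0.04, and complexes III to V had 21 of 36 below 0 and a median of -0.08. Of the cytochrome oxidase subunits, Cox6a1 was at 2727 on STIM1KO sham and 4103 on WT sham, Cox5a at 4103 and 5949 on the same arrays, and Cox6b1 at 17357 and 25105. These subunits were lowest on STIM1KO sham, and their TAC differences were -0.38, -0.29 and -0.06. Other subunits ran the other way, Cox5b at 22342 on STIM1KO sham and 18279.6 on WT sham and Cox7b at 25105 and 21469 on the same arrays.

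Stress and housekeeping lists had medians near 0. The superoxide dismutases ran in opposite directions: Sod1, the cytosolic enzyme, was at 80.1 on STIM1KO sham and 43.9 on WT sham, and Sod2, the mitochondrial enzyme, was at 3802 on STIM1KO sham and 6287 on WT sham. After TAC Sod2 was at 6388 in STIM1KO and 6209.9 in WT. Hspd1, the mitochondrial chaperonin, was at 1562 on STIM1KO sham and 2656 on WT sham, and at 2714 on STIM1KO TAC and 3017 on WT TAC, so Sod2 and Hspd1 were both lowest on STIM1KO sham alone. Hspa8, the constitutive cytosolic HSP70, was at 12716 on STIM1KO sham and 8995 on WT sham, and the heat shock list had 16 of 25 above 0 and a median of 0.07. Immediate early genes had 8 of 15 below 0 and a median of -0.07, with Dusp6, a phosphatase that switches off ERK, at -0.87. Among G protein genes Rgs2, which shortens Gq signalling, was at 239 on STIM1KO sham and 424 on WT sham, and at 448 on STIM1KO TAC and 332 on WT TAC. Of the 47 cytosolic ribosomal protein genes 26 were above 0, with a median of 0.03 and none beyond 1.5-fold. Medians of the proteasome (-0.02), splicing (-0.03), unfolded protein response (0.01), antioxidant (0.01) and translation (0.02) lists turned sign with the scaling. Interferon genes had a median of -0.04, and cell cycle genes, with 10 of 12 below 0, a median of -0.14.

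**Figure D5:**
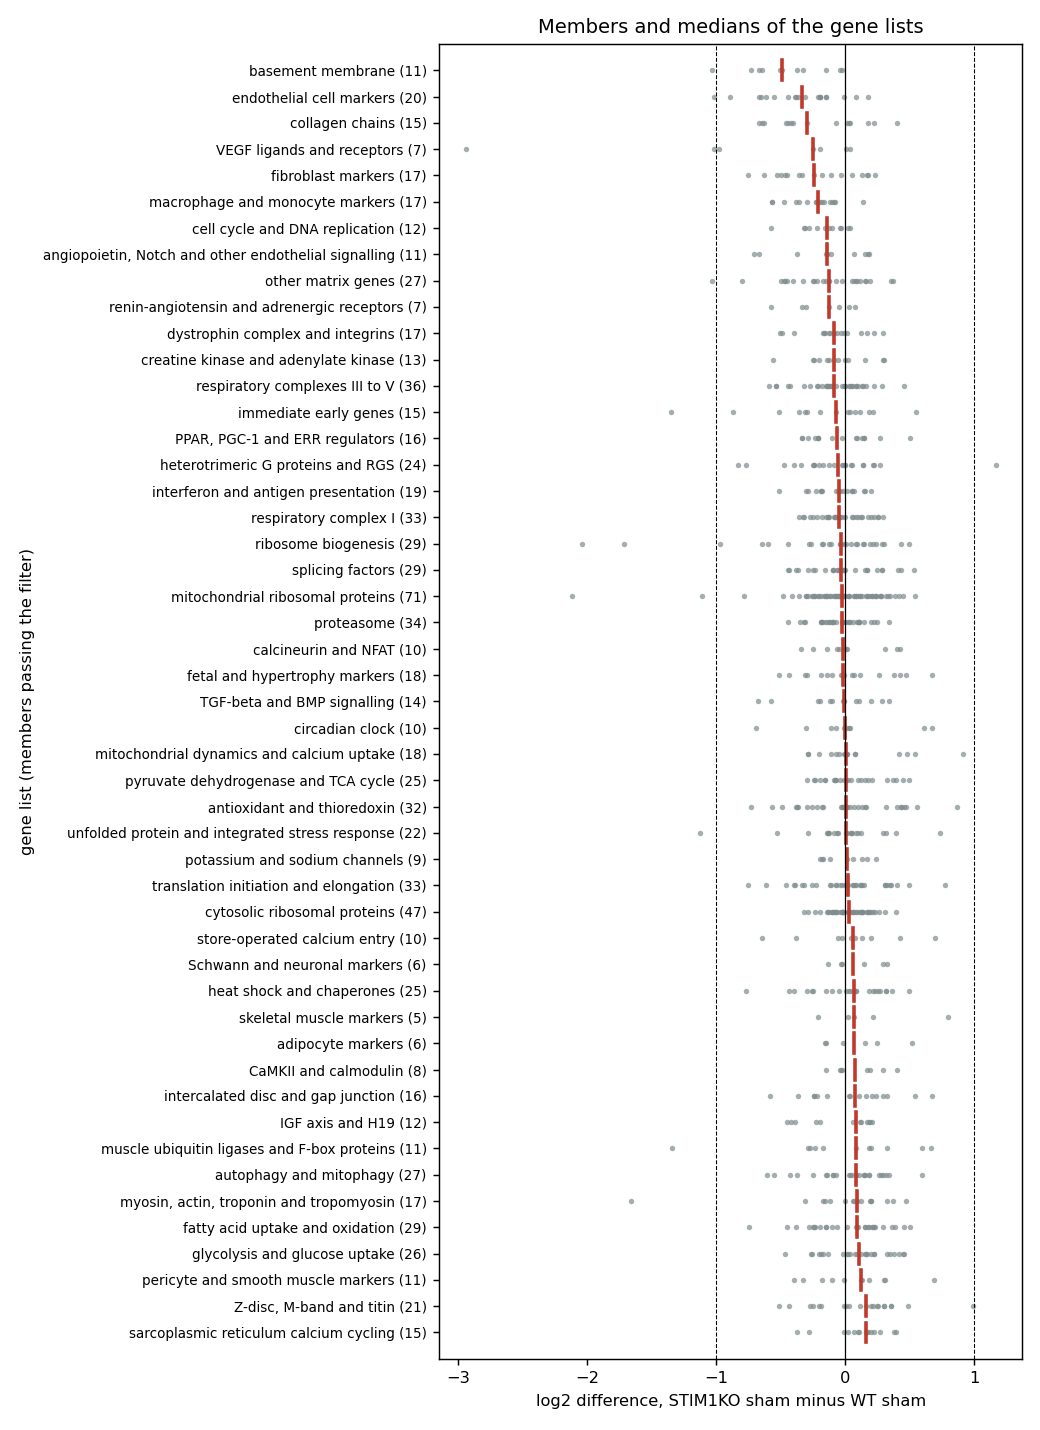
For each gene list reported here with 5 or more members passing the filter (number in brackets), grey points are the log2 differences STIM1KO sham minus WT sham of the members, the red bar is their median and dashed lines mark 2-fold. Basement membrane, endothelial, collagen and VEGF lists are at the top with medians between -0.49 and -0.25, and calcium cycling and Z-disc lists are at the bottom at 0.16.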

How the data were processed

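Per the labels' protocols, amino allyl RNA amplified from left ventricle total RNA carried Cy5. The deposited values are linear intensities, 1 for each probe on each array. Scanner, background correction, scaling and the rule behind blanks: not given in the sources used here. As deposited, array medians over own probes were about 20.0. Of 23473 probes, 21115 (STIM1KO sham), 21437 (WT sham), 21782 (STIM1KO TAC) and 21605 (WT TAC) had a value, and 19607 had one on all 4 arrays. These were log2 transformed and quantile normalized because log2 medians spread over 0.101. Symbols came from the platform table (16631 probes, 3947 updated through RefSeq synonyms, 6842 unnamed), and the brightest probe stood for a gene. No test was possible with 1 array per group, and array number limits the precision. The genes named were Stim1 and its list, all at 2-fold, the 20 highest and lowest, up to 8 members of each list by size of difference and up to 3 by level, Myh6 and other fixed cardiac markers, and 6 dim genes; Stim1's neighbours fall outside this rule, as do Actc1, Ccar1, Pecam1, Mrc1 and Col4a1, which were chosen after their values were seen. Members and the 55 lists were chosen with earlier results of these data known. Alternatives were median centring, deposited values, normalization of the sham arrays alone, other filters, an offset before log2, the mean over probes and other folds. Python 3.11.15, numpy 2.4.6 and pandas 2.3.3 were used, and the steps were tested on simulated data. 1 of the lists is not reported here.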

Additional observations from a re-analysis of the deposited data

How the results depend on the processing

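No paired analysis was possible because each group has 1 array, and for the same reason no array could be left out. Vegfb, Flt1 and the other 2-fold genes kept their direction under all alternatives run. The 2-fold counts, 2 higher and 37 lower, became 86 and 192 at 1.5-fold, 0 and 12 at 3-fold, 145 and 230 with no filter, and 0 and 20 with a filter at the 75th percentile. With each array centred on its median 4 were higher. The 1.5-fold counts, 86 and 192, became 709 and 936 with no filter and 45 and 87 at the 75th percentile. With an offset of 7.72 intensity units before log2, 31 of the 39 genes stayed at 2-fold and Flt1 was among those under it, as it was with centring. The Stim1 log2 difference ranged between -1.08 and -0.79. Of 340 recomputed list medians 327 moved by no more than 0.1. With no filter, medians moved to -0.041 for store-operated calcium entry, -0.12 for potassium and sodium channels, -0.35 for basement membrane, -0.071 for ubiquitin ligases and 0.033 for immediate early genes. At the 75th percentile they moved to -0.24 for other matrix genes, -0.35 for fibroblast markers, 0.086 for PPAR regulators, 0.039 for immediate early genes, -0.21 for G proteins, 0.057 for interferon genes and -0.039 for cell cycle genes. The collagen median was -0.18 with the mean over probes. Fewer or more genes pass under other filters by construction. Dim signal limits all values near the filter level.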

Other observations

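Several genes under the filter had a sham array at or above its level. Asb6, which joins ubiquitin ligases through a SOCS box, was at 8.39 on STIM1KO sham and 29.3 on WT sham, and at 30.4 on STIM1KO TAC and 25.98 on WT TAC. Cln3, a lysosomal membrane protein, was at 11.6 on STIM1KO sham and 30.0 on WT sham, and Cpm, a membrane carboxypeptidase, was at 13.0 and 29.4 on the same arrays. These 3 were lowest on STIM1KO sham. Tyms, which makes thymidylate for DNA, was at 16.4 on STIM1KO sham and 34.7 on WT sham.

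In the other direction, Gsta2, a glutathione transferase, was at 33.9 on STIM1KO sham and 12.7 on WT sham, and at 61.3 on STIM1KO TAC and 23.9 on WT TAC. Mmp3, a matrix metalloproteinase, was at 44.5 on STIM1KO sham and 16.8 on WT sham, and at 24.5 on STIM1KO TAC and 15.3 on WT TAC. Both were higher in STIM1KO in both pairs, at levels where the spread of differences was wide.

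Probes without a symbol gave 5 higher and 5 lower at 2-fold among 2117 at or above the filter level. A further 812 probes had a value on STIM1KO sham and were empty on WT sham, with a highest deposited intensity of 9.22, and 1134 had a value on WT sham and were empty on STIM1KO sham, with a highest of 11.2. All of these were therefore dim where they were measured.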
